A study of Mus musculus with 6 samples.

Results

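The genes described here encode 41 plasma proteins of blood coagulation and complement that the liver makes, among them the clotting factors, the 3 fibrinogen chains, their inhibitors, and complement from its starting proteases to the membrane attack complex. They were taken from a list of symbols, which was chosen with earlier results of these data known. All 41 were found among the 55471 gene identifiers counted (Hc is the mouse symbol for complement C5). The RNA came from the livers of 6 mice, all male and wild type on C57BL/6J, a common inbred strain, with 1 library per mouse. Of these mice 3 had been fasted for 4 h and 3 for 16 h, so both groups were without food and no fed group enters the comparison. The sources used here give neither the age of the mice nor the hour of sampling. The wider study concerns nonvesicular cholesterol transport in liver. The question asked here was which coagulation and complement transcripts differed between a short and a long fast.

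Coagulation is a chain of proteases that ends in thrombin, which cuts fibrinogen into fibrin. It can be started by tissue factor with factor VII or by the contact system around factor XII, and it is held back by antithrombin, heparin cofactor II and the protein C and protein S pair. Complement is a second protease chain of plasma, opened by antibody, by lectins that bind sugars or by slow activation of C3, and it ends in a pore of C5 to C9. Hepatocytes secrete most of these proteins, whereas coagulation factor VIII is known as a product of liver endothelium. Several of them, fibrinogen and C3 among them, belong to the acute phase proteins whose synthesis is raised by interleukin 6 in inflammation.

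Library depth lay between 15173653 and 26572532 counts assigned to genes. Values are given as CPM, the counts of a gene brought to a common library total with TMM scaling, in the order of replicates 1, 2 and 3 of a group, and every change compares the long with the short fast, as a log2 value ± its SE over 3 livers in each group. P-values are from edgeR's quasi-likelihood test, adjusted by Benjamini-Hochberg over the 13812 genes tested, with a threshold of 0.05. Each mean thus stands on 3 mice, 1 library each. In whole tissue, fewer cells of a type and less RNA per cell cannot be told apart. The 10 hepatocyte markers summed to 102700 to 109400 CPM after the short fast and 102500 to 119400 CPM after the long one. Of them 5 were higher (Tat, Tdo2, Cps1, Cyp2e1 and Apob, by 0.53 to 1.64), Ttr was lower (-0.91) and 4, with Alb among them, did not pass, with a median of 0.55. Replicate 3 of the 4 h fast stood apart: its 12 lung markers summed to 190.9 CPM against 5.93 to 9.28 CPM in the other libraries, and its 10 neutrophil markers to 16.2 CPM against 2.49 to 6.03 CPM. The 6 red cell markers that have counts summed to 148 to 176 CPM after the short fast and 53.5 to 99.4 CPM after the long one. Much of that sum was Alas2, at 97.1, 104 and 96.6 CPM and then at 42.6, 46.4 and 51.1 CPM. Alas2 was the only red cell marker that passed, while the 4 globin genes overlapped between the groups and did not pass. The part of lung, neutrophil and red cell transcripts in the results was not tested, and counts are also given without that library.

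Fibrinogen, factor XI and complement C8a transcripts were lower after the longer fast, and protein S and C3 transcripts were higher. Of the 41 members, all of which had enough counts to be tested, 3 were higher (Pros1, C3 and F5), 10 were lower (F11, Fgg, C8a, Mbl2, Fga, C2, Fgb, F7, Klkb1 and C1s1) and 28 did not pass. Among all genes tested, 18.7% passed, 9.18% as higher and 9.51% as lower, against 31.7% of the members. The members are mostly abundant, 39 of them with a mean of at least 10 CPM, and of the 7627 tested genes at that level 24.4% passed, 13.4% as higher and 10.9% as lower. For 28 members (68.3%) the 3 values of the groups did not overlap, 24 of them lower and 4 higher after 16 h. That held for 39.4% of all genes tested and for 46.9% of those with a mean of at least 10 CPM. Most members lay well above 10 CPM, so neither set of genes is matched to them in abundance.

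The changes were small. The median of the 41 log2 changes was -0.25, beside -0.028 over all genes tested, with 29 members below 0 and 12 above. Only F11 changed by at least 2-fold, and 32 members lay within 0.5 log2 units of no change. A doubling and a halving both lay outside the 95% interval of 39 members, the exceptions being F11 and Pros1. The calls of 4 members, F11, Fgg, Pros1 and C8a, held under each of the 11 alternatives run, which included leaving out each library. Without 4 h replicate 3, the library with lung transcripts, 4 members were higher and 11 lower, and 20.9% of all genes passed. When 16 h replicate 1, 2 or 3 was dropped, 1, 1 and 2 members were higher and 3, 6 and 4 were lower, while the share of all genes that passed fell to 11.7%, 9.72% and 9.71%. With plain library totals in place of the scaled ones 2 were higher and 16 lower, and 17.6% of all genes passed. With DESeq2's size factors as the scaling the counts stayed at 3 and 10, and 18.9% of all genes passed. With the DESeq2 test the member counts were 4 and 16, and 19.5% of all genes passed. The number of lower calls thus depends on the processing.

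**Figure D1:**
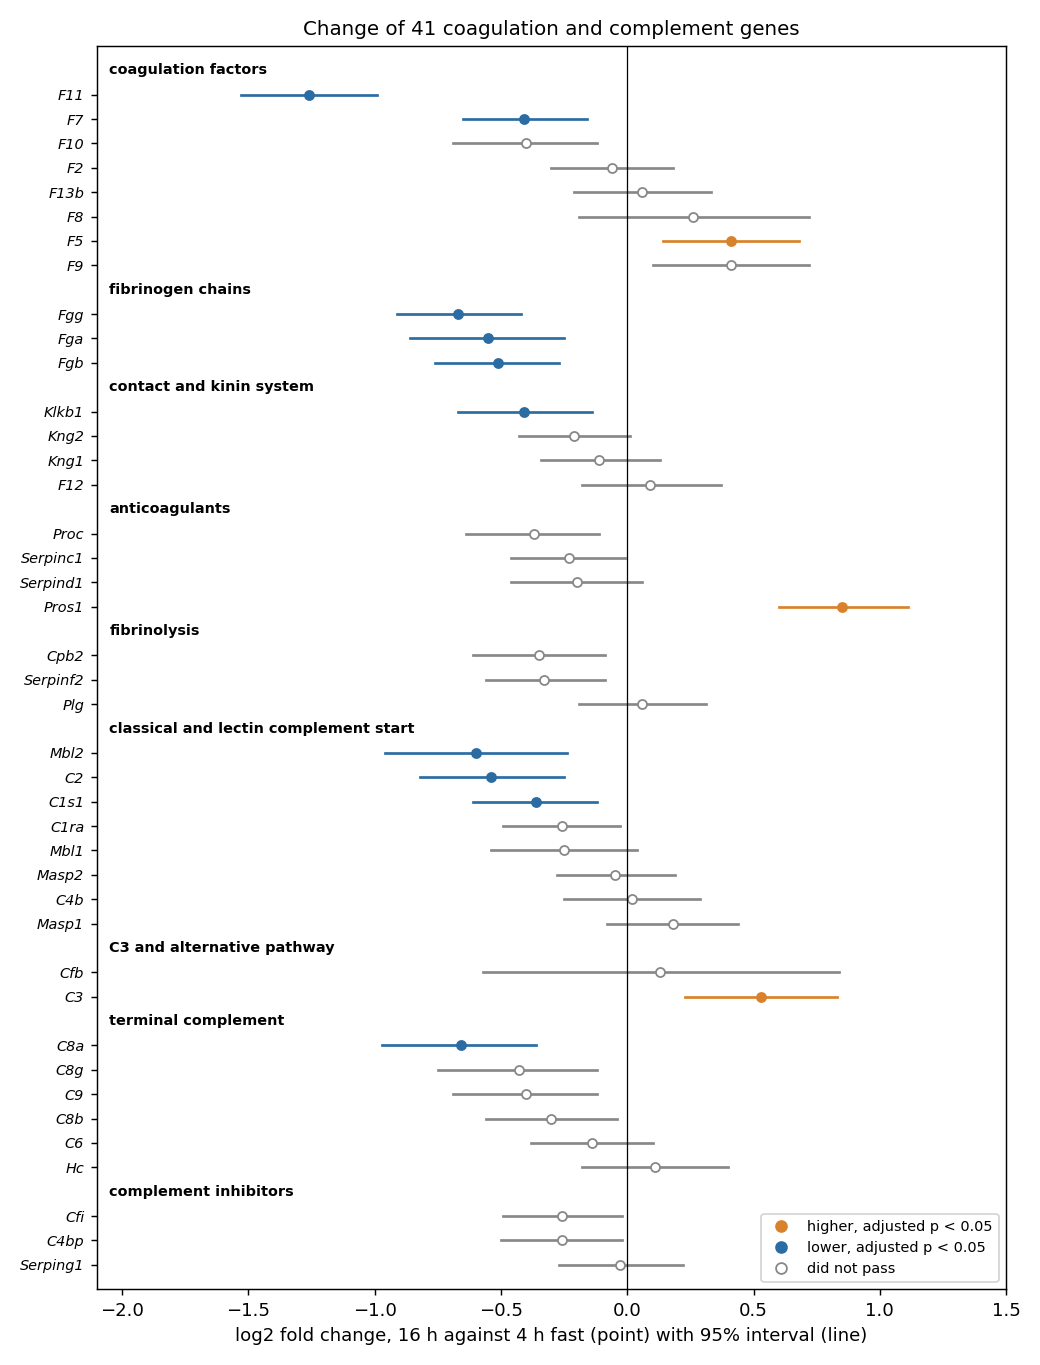
Log2 fold change of each of the 41 members, 16 h against 4 h (horizontal axis), as the estimate from 3 livers per group (point) with its 95% interval (line), ordered by role; filled points passed the test (orange higher, blue lower) and open points did not. F11, at -1.26, lies farthest from 0, Pros1, at 0.85, is the highest, and the 3 fibrinogen chains lie between -0.67 and -0.51.

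Fibrinogen is a plasma protein of 3 pairs of chains, encoded by Fga, Fgb and Fgg, which lie beside each other on chromosome 3 of GRCm38, and thrombin cuts it to make the fibres of a clot. The gamma chain gene Fgg (83007724 to 83015049) was at 4008, 3487 and 3702 CPM after 4 h and at 2293, 2420 and 2347 CPM after 16 h. The alpha chain gene Fga (83026076 to 83033627) was at 5613, 5422 and 4234 CPM after 4 h and at 3260, 3926 and 3227 CPM after 16 h. For the beta chain gene Fgb (83040141 to 83049863) the values were 5419, 4957 and 4841 CPM and then 3423, 3842 and 3400 CPM. In each of the 3 genes every 4 h library lay above every 16 h library, with the smallest gap in Fga, where 4 h replicate 3 came close to 16 h replicate 2. Fgg fell from 3732 ± 262 to 2354 ± 63.8 CPM (SD, n = 3), a change of -0.67 ± 0.11 (edgeR adjusted p = 0.00189). Fga fell by 0.55 ± 0.14 and Fgb by 0.51 ± 0.11 on the log2 scale (edgeR adjusted p = 0.0184 and 0.00951). Together the 3 chains took 1.54%, 1.42% and 1.24% of all gene counts after 4 h and 0.925%, 0.995% and 0.871% after 16 h. Fga no longer passed when 4 h replicate 1 or 2 was dropped (edgeR adjusted p = 0.069 and 0.0521), or 16 h replicate 1 or 3 (0.0832 and 0.086), nor did Fgb without 16 h replicate 1 or 3 (0.0518 and 0.0539). Over the 11 alternatives the adjusted p of Fga ran from 5.95e-04 to 0.086, that of Fgb from 1.15e-04 to 0.0539 and that of Fgg from 1.82e-08 to 0.0145.

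The stretches before the starts of these 3 genes are shown because the genes lie in 1 cluster and fell together, and those of F11 and C3 because they are the member with the largest fall and the most abundant member that rose. Promoters of 32 of the 41 members were matched in RefSeq's GRCm38.p6 annotation. Each sequence runs 5′ to 3′ toward the start on the strand of its gene, 250 bases before it. For Fga the 77 bases nearest the RefSeq start are left out, since the GENCODE gene begins there. Capitals mark matches on either strand to the C/EBP core TTGCNNAA, the interleukin 6 element CTGGGAA or the HNF1 core GTTAAT.
Fga, chr3:83025903-83026075, plus strand: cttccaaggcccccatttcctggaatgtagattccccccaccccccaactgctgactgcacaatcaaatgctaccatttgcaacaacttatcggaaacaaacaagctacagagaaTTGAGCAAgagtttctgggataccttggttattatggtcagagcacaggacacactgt
Fgb, chr3:83049864-83050113, minus strand: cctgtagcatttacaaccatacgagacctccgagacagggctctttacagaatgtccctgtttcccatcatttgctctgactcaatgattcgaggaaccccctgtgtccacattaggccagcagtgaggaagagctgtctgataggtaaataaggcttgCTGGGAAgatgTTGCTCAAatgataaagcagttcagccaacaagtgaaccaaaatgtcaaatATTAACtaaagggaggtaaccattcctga
Fgg, chr3:83007474-83007723, plus strand: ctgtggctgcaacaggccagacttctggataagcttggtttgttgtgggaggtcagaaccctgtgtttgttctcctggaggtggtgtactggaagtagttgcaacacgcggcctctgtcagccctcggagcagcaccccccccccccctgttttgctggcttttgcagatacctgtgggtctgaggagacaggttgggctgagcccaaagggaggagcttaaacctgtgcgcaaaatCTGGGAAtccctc
F11, chr8:45262032-45262281, minus strand: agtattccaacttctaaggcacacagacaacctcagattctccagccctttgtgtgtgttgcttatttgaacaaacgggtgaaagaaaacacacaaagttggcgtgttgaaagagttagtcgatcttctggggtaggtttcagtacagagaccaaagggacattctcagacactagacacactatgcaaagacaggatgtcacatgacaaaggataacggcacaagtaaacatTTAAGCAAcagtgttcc
C3, chr17:57228137-57228386, minus strand: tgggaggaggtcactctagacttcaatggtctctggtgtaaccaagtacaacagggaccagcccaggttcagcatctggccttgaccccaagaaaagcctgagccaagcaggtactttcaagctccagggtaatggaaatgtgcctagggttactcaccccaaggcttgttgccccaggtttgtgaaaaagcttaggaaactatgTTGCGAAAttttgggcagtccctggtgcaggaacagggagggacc

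The C/EBP core is bound by the C/EBP family of liver transcription factors. It was found from 135 to 128 bases before the RefSeq start of Fga, a count that includes the bases left out above. It also lay from 80 to 73 bases before the start of Fgb, from 17 to 10 before F11 and from 45 to 38 before C3. The interleukin 6 element lay from 91 to 85 bases before Fgb and from 13 to 7 before Fgg. The HNF1 core, named for a hepatocyte nuclear factor, lay from 29 to 24 bases before Fgb, and also from 43 to 38 before the RefSeq start of Fga in the stretch not shown. Of the 34 promoter entries of the members, 9 (26.5%) held the C/EBP core, 5 (14.7%) the interleukin 6 element and 8 (23.5%) the HNF1 core. Over the 32851 promoters of the same length in the table the shares were 9.56%, 9.1% and 6.43%. The glucocorticoid receptor core TGTTCT was in 11 member entries (32.4%, against 16.1% of all), with C1s1 counted more than once. The D-box TTATGNAA was in 2 (5.88%, against 3.07%). The HNF4 core CAAAGTCCA was in 0 (against 0.384%) and the TATA box TATAAA in 2 (5.88%, against 12.4%). Both strands were searched, and matches of different motifs could overlap. The difference in shares was not tested, and the 32851 promoters are not limited to genes expressed in liver. A match is a run of letters, and nothing here measures binding.

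**Figure D2:**
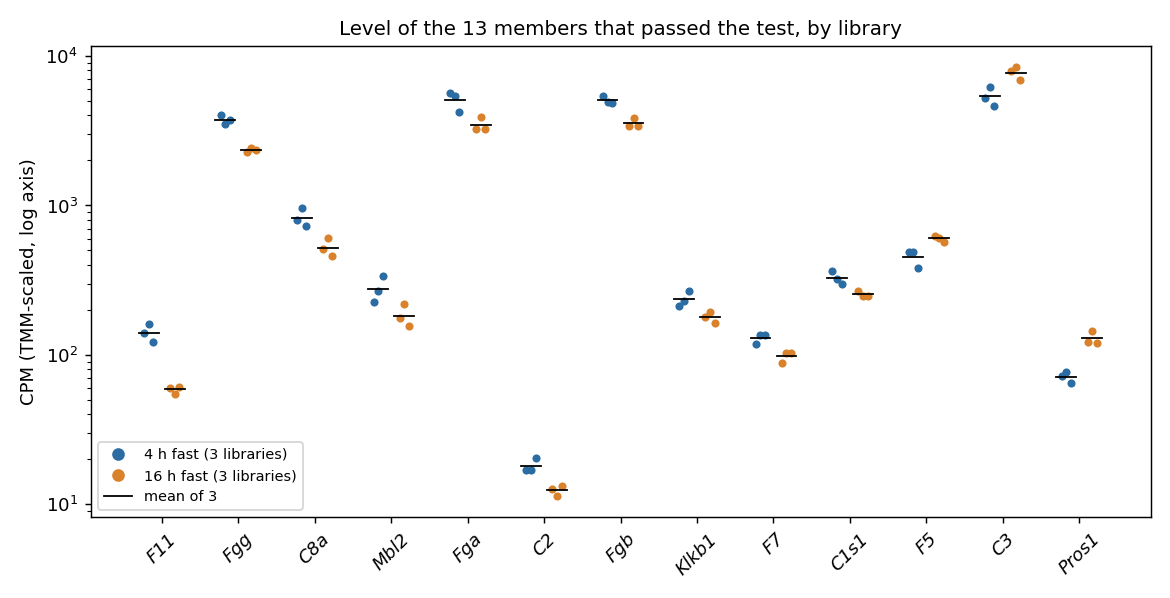
CPM on scaled library sizes (log axis) of the 13 members that passed the test, with each library as a point in the order of replicates 1, 2 and 3 (blue 4 h, orange 16 h) and the mean of 3 as a line. In each of the 13 genes the points of the groups do not overlap, from F11 at the left with the largest fall to Pros1 at the right with the largest rise.

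Among the 8 other clotting factors, 1 was higher, 2 were lower and 5 did not pass. Factor XI, a protease that activates factor IX, had the largest change of all members. F11 (chromosome 8, 45241174 to 45262031) was at 139, 162 and 121 CPM after 4 h and at 59.8, 55.0 and 61.4 CPM after 16 h. The 4 h libraries were all far above the 16 h libraries. F11 fell from 141 ± 20.1 to 58.7 ± 3.3 CPM (-1.26 ± 0.12, edgeR adjusted p = 7.35e-05), with changes between -1.34 and -1.13 over the 11 alternatives. Factor VII, which starts clotting with tissue factor, was at 119, 136 and 136 CPM and then at 88.8, 103 and 103 CPM for F7 (-0.41 ± 0.11, edgeR adjusted p = 0.0258). Its call was lost without 4 h replicate 2 (0.077) and when 16 h replicate 1, 2 or 3 was dropped (0.126, 0.0746 and 0.0724), in a range of 0.0107 to 0.126 over the alternatives.

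Factor V, the cofactor that speeds the making of thrombin, moved the other way. F5 was at 491, 486 and 380 CPM after 4 h and at 628, 602 and 574 CPM after 16 h, so that all 16 h libraries were higher and 4 h replicate 3 was the lowest. F5 rose from 452 ± 63.1 to 601 ± 26.9 CPM (0.41 ± 0.12, edgeR adjusted p = 0.0397). That call was lost with plain library totals (0.0675) and when 16 h replicate 1, 2 or 3 was dropped (0.122, 0.118 and 0.088), in a range of 0.00925 to 0.122. Factor IX, encoded by F9 on the X chromosome, had values of 239, 232 and 164 CPM and then 283, 290 and 269 CPM. Its groups did not overlap, and its change of 0.41 ± 0.14 did not pass (edgeR adjusted p = 0.0661), but F9 passed without the filter on low counts (0.0106), with DESeq2 (0.0314) and, at a value of 0.27, without 4 h replicate 3 (0.0446). Factor X, encoded by F10, was at 468, 512 and 639 CPM and then at 388, 435 and 402 CPM, again without overlap and without passing (-0.40 ± 0.13, edgeR adjusted p = 0.0516). F10 passed with plain library totals (0.0318), without the filter on low counts (0.0308), with DESeq2 (0.0259) and without 4 h replicate 1 (0.0366). Over the alternatives the adjusted p ran from 0.0106 to 0.184 for F9 and from 0.0259 to 0.169 for F10.

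Prothrombin, the precursor of thrombin, was the most abundant of these factors. F2 stood at 2069 ± 159 CPM in the short fast and 1983 ± 59.3 CPM in the long one (-0.06 ± 0.11, 95% interval -0.30 to 0.18). F13b, the carrier subunit of the enzyme that cross-links fibrin, was at 188 ± 28.0 and 196 ± 4.83 CPM (0.06 ± 0.12). F8, the factor VIII gene, had few counts, with values of 5.85, 5.09 and 3.76 CPM after 4 h and 7.03, 5.12 and 5.52 CPM after 16 h, and its groups overlapped (0.26 ± 0.21, 95% interval -0.19 to 0.72). The 13 markers of sinusoidal endothelium summed to 241 to 267 CPM after 4 h and 224 to 285 CPM after 16 h, and 0 of them was higher and 1 lower by edgeR. At an unadjusted p under 0.05, 2 of these markers were higher and 1 lower, and DESeq2 called 0 higher and 1 lower.

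The contact system is a group of proteins that activate each other on charged surfaces and release bradykinin from kininogen. Of its 4 members 1 was lower, 3 did not pass, and by edgeR 0 were higher (also 0 at an unadjusted p under 0.05 and 0 with DESeq2). Klkb1, which encodes plasma prekallikrein and lies 4.66 kb from F11, was at 213, 228 and 269 CPM after 4 h and at 178, 193 and 165 CPM after 16 h. The 4 h libraries were all higher, by a narrow margin between 4 h replicate 1 and 16 h replicate 2. Klkb1 fell by 0.41 ± 0.12 (edgeR adjusted p = 0.0365), and lost its call without 4 h replicate 2 (0.0603) and when 16 h replicate 1, 2 or 3 was dropped (0.113, 0.0744 and 0.158), in a range of 0.0157 to 0.158. Its counts are uncertain, as 43.2% of its exon bases are also annotated to Gm45753. High molecular weight kininogen is encoded in mice by Kng1 and Kng2, of which Kng1 had the higher level. Kng1 was at 2092, 2078 and 2050 CPM and then at 1792, 2046 and 1934 CPM, lower in all 16 h libraries but within 0.11 ± 0.11 below the 4 h level on the log2 scale (edgeR adjusted p = 0.514). Kng2 was at 266 ± 12.2 and 230 ± 6.18 CPM (-0.21 ± 0.10). F12, the first protease of the system, was at 576 ± 73.2 and 615 ± 54.8 CPM (0.09 ± 0.13). Neither passed.

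Of the 4 anticoagulants 1 was higher and 3 did not pass. Protein S, the cofactor of activated protein C and a plasma partner of the complement inhibitor C4b-binding protein, had the largest rise of all members. Pros1 (chromosome 16, 62854307 to 62929346) was at 71.9, 77.5 and 65.0 CPM after 4 h and at 122, 145 and 120.1 CPM after 16 h. All 16 h libraries were higher, and the ratio of the means was 1.81. Pros1 rose by 0.85 ± 0.12 (edgeR adjusted p = 6.43e-04), with 0.77 to 0.94 over the alternatives and adjusted p of at most 0.00602. Proc, the gene of protein C itself, had the opposite sign, at 635, 596 and 771 CPM and then at 497, 516 and 533 CPM. Its groups did not overlap, yet it did not pass (-0.37 ± 0.12, edgeR adjusted p = 0.0528), except with plain library totals (0.0317), with DESeq2 (0.0242) and without 4 h replicate 2 (0.0447), in a range of 0.0242 to 0.167. Antithrombin, the main plasma inhibitor of thrombin, is encoded by Serpinc1, which was at 2265 ± 62.5 and 1927 ± 45.1 CPM (-0.23 ± 0.10, edgeR adjusted p = 0.141). An antisense gene covers 34.4% of its exon bases. Serpind1, the gene of heparin cofactor II, was at 436 ± 45.5 and 379 ± 33.7 CPM (-0.20 ± 0.12).

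Among the 6 members whose proteins need vitamin K for their function, F2, F7, F9, F10, Proc and Pros1, 1 was higher, 1 was lower and 4 did not pass, so they had no common direction. Fibrinolysis dissolves clots through plasmin. By edgeR, 0 of its 3 members passed, while 2 were lower at an unadjusted p under 0.05 and with DESeq2. Plg, the gene of plasminogen, was at 1908 ± 166 and 1990 ± 143 CPM (0.06 ± 0.12, 95% interval -0.19 to 0.31). Serpinf2 encodes the plasmin inhibitor alpha 2-antiplasmin, and was at 752, 860 and 857 CPM and then at 645, 676 and 648 CPM. Cpb2 encodes a carboxypeptidase that slows fibrinolysis, and was at 311, 326 and 334 CPM and then at 225, 292 and 244 CPM. In both genes all 4 h libraries lay above all 16 h libraries. The changes were -0.33 ± 0.11 for Serpinf2 (edgeR adjusted p = 0.0555, range 0.0229 to 0.17) and -0.35 ± 0.12 for Cpb2 (edgeR adjusted p = 0.0625, range 0.0413 to 0.241). Both passed with plain library totals (0.039 for Serpinf2 and 0.0413 for Cpb2) and with DESeq2 (0.0229 and 0.0453), Serpinf2 also without 4 h replicate 3 (0.0496).

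Classical complement is opened by C1r and C1s on antibody, and the lectin pathway by mannose-binding lectins with the MASP proteases. Of these 8 members 3 were lower, 5 did not pass and by edgeR 0 were higher (also 0 at an unadjusted p under 0.05 and 0 with DESeq2). Mbl2, a mannose-binding lectin, was at 228, 267 and 338 CPM after 4 h and at 176, 218 and 155 CPM after 16 h. C2, the protease of the classical C3 convertase, was at 17.03, 17.01 and 20.5 CPM and then at 12.8, 11.4 and 13.3 CPM. C1s1 was at 362, 321 and 297 CPM and then at 267, 247 and 249 CPM. In none of the 3 genes did the groups overlap, and in Mbl2 4 h replicate 3 was the highest library. Mbl2 fell by 0.60 ± 0.16 (edgeR adjusted p = 0.0269), and lost its call without 4 h replicate 3 (-0.42, 0.0591) and when 16 h replicate 1 or 3 was dropped (0.0929 and 0.122). C2 fell by 0.54 ± 0.13 (edgeR adjusted p = 0.0155), lost without 16 h replicate 1 or 2 (0.0521 and 0.0796). The change of C1s1 was -0.36 ± 0.11 (edgeR adjusted p = 0.0427), and the call was kept when 4 h replicate 3 was dropped and lost with any other library dropped (0.168 and 0.0896 without 4 h replicate 1 and 2, and 0.0968, 0.155 and 0.149 without 16 h replicate 1, 2 and 3) and without the filter on low counts (0.0596). Over the alternatives the adjusted p was 1.64e-04 to 0.122 for Mbl2, 0.00872 to 0.0796 for C2 and 0.00709 to 0.168 for C1s1.

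The value of C2 is uncertain, since 46.9% of its exon bases also belong to other genes, chiefly the read-through model Gm20547, and for C1s1 18.4% lie under an antisense gene. C1ra, the partner protease of C1s, was at 263 ± 2.58 and 220 ± 15.8 CPM (-0.26 ± 0.10, edgeR adjusted p = 0.107). Mbl1, the second mannose-binding lectin, was at 164 ± 26.1 and 138 ± 14.5 CPM (-0.25 ± 0.13, edgeR adjusted p = 0.218). C4b encodes complement C4 and was at 1505, 1539 and 1481 CPM and then at 1356, 1787 and 1445 CPM, with overlapping groups (0.02 ± 0.12, 95% interval -0.25 to 0.29). Reads that C4b shares with its near-identical neighbour C4a may have been lost or assigned to either. Masp1 (0.18 ± 0.12) and Masp2 (-0.05 ± 0.11) encode the lectin pathway proteases. Neither passed, and 54.9% of the exon bases of Masp2 lie under the antisense gene Tardbp.

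C3, on which all complement pathways meet, rose and had the highest mean CPM of the members in both groups. After 4 h its mean of 5361 CPM was close to those of Fga (5090) and Fgb (5072). It lies on chromosome 17 at 57203970 to 57228136. C3 was at 5256, 6198 and 4629 CPM after 4 h and at 7931, 8393 and 6893 CPM after 16 h. The lowest 16 h library exceeded the highest 4 h library. C3 rose from 5361 ± 790 to 7739 ± 768 CPM (0.53 ± 0.14, edgeR adjusted p = 0.0203). The call was lost without 4 h replicate 1 (0.0502) and when 16 h replicate 1 or 2 was dropped (0.0672 and 0.0969), and the change lay between 0.45 and 0.67 over the alternatives (adjusted p from 3.5e-04 to 0.0969). Cfb, the factor B gene of the alternative pathway, was at 5.44, 4.12 and 1.83 CPM and then at 4.45, 3.68 and 4.49 CPM (0.13 ± 0.32, 95% interval -0.57 to 0.84). The level of Cfb is uncertain, since 79.5% of its exon bases are also annotated to Gm20547. Without 4 h replicate 3 the change of Cfb was -0.18.

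The terminal proteins C5 to C9 build the membrane attack complex. Of the 6 members 1 was lower and 5 did not pass, and by edgeR 0 were higher (also 0 at an unadjusted p under 0.05 and 0 with DESeq2). C8a, the alpha chain of C8 (chromosome 4, 104815679 to 104876398), was at 800, 955 and 733 CPM after 4 h and at 509, 603 and 458 CPM after 16 h. All 4 h libraries were higher. C8a fell from 829 ± 114 to 523 ± 73.2 CPM (-0.66 ± 0.14, edgeR adjusted p = 0.00716), with -0.78 to -0.53 and an adjusted p of at most 0.0469 over the alternatives. C8g, the gamma chain, was at 285, 262 and 386 CPM and then at 214, 238 and 239 CPM. C9, which forms the wall of the pore, was at 609, 676 and 798 CPM and then at 484, 586 and 508 CPM. For these last genes the groups did not overlap either, and 4 h replicate 3 was the highest library in both. C8g (-0.43 ± 0.14, edgeR adjusted p = 0.0561) and C9 (-0.40 ± 0.13, edgeR adjusted p = 0.0524) did not pass. Both passed with plain library totals (0.0355 for C8g and 0.0316 for C9), without the filter on low counts (0.0157 and 0.0319) and with DESeq2 (0.0308 and 0.0266). C8g also passed without 4 h replicate 2 (0.0274) and C9 without 4 h replicate 1 (0.0421), in ranges of 0.0157 to 0.182 and 0.0266 to 0.187.

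The beta chain gene C8b was at 468 ± 41.4 and 380.2 ± 40.3 CPM (-0.30 ± 0.12, edgeR adjusted p = 0.106). C6 was at 403 ± 17.8 and 366 ± 29.5 CPM (-0.14 ± 0.11). Hc, the C5 gene, was at 838 ± 102 and 904 ± 114 CPM, with overlapping groups (0.11 ± 0.13, 95% interval -0.18 to 0.40). The complement inhibitors among the members had 0 of 3 that passed by edgeR, with 2 lower at an unadjusted p under 0.05 and 0 with DESeq2. Cfi, a protease that cuts C3b and C4b, was at 694 ± 33.4 and 581 ± 41.4 CPM (-0.26 ± 0.11, edgeR adjusted p = 0.121). C4bp, the C4b-binding protein, was at 595, 572 and 495 CPM and then at 466, 466 and 455 CPM, without overlap (-0.26 ± 0.11, edgeR adjusted p = 0.122). It passed without 4 h replicate 3 (-0.32, adjusted p = 0.0184, in a range of 0.0184 to 0.342). Serping1, the inhibitor of C1 and of the contact proteases, was at 669 ± 39.8 and 657 ± 58.9 CPM (-0.03 ± 0.11).

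Levels of different genes were compared per length, as CPM per kb of all annotated exons. After 4 h the order began with Fgg (1783 ± 125), Fga (1691 ± 248), Fgb (1331 ± 80.3), C3 (1042 ± 154) and Kng1 (638 ± 6.6), where Fgg and Fga lay within their SD of each other. After 16 h C3 was first at 1505 ± 149, followed by Fga (1153 ± 131), Fgg (1125 ± 30.5), Fgb (933 ± 65.4) and Kng1 (592 ± 39.1). Per length, C3 was thus below each of the 3 fibrinogen chains after the short fast and above each of them after the long one. The order below these was led in both groups by Plg (514 ± 44.7 and 536 ± 38.5) and F2 (450.4 ± 34.6 and 432 ± 12.9). At the lower end came C2, Cfb and F8, with 0.495 ± 0.107 and 0.595 ± 0.102 CPM per kb for F8. The exon length is that of all isoforms together, so genes with long rare isoforms are placed too low.

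**Figure D3:**
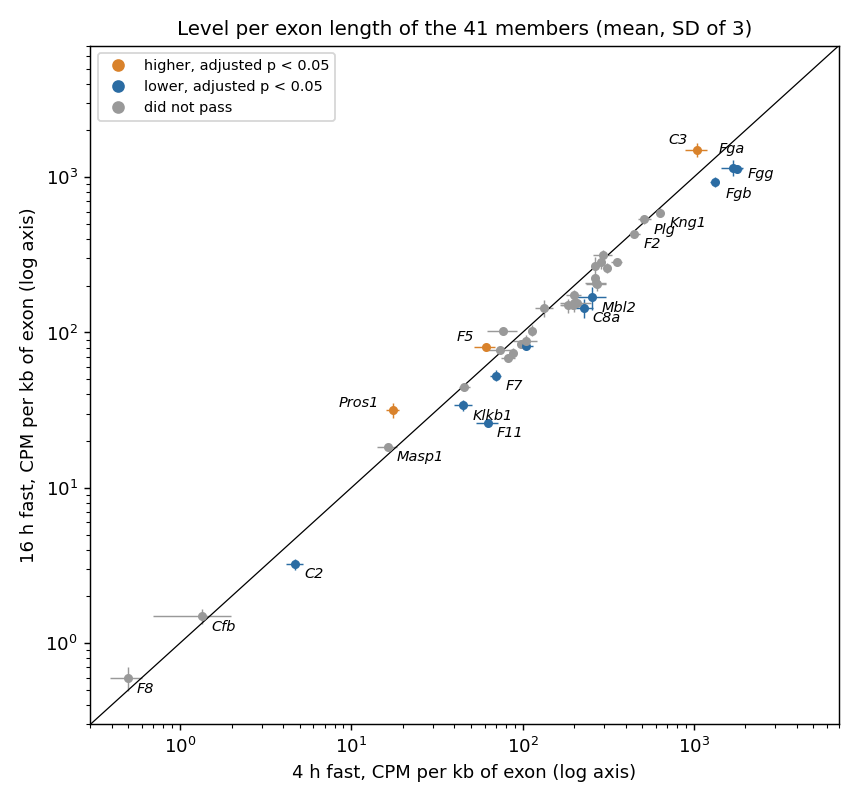
Mean level per exon length of each member after 4 h (horizontal) and after 16 h (vertical), in CPM per kb of exon on log axes, with SD over 3 libraries as bars and the line of equal levels; orange passed as higher, blue as lower, grey did not pass. C3 lies above the line and the 3 fibrinogen chains below it, and the levels run from 0.495 for F8 to 1783 for Fgg after 4 h.

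The members together took 4.25%, 4.3% and 3.82% of all gene counts after 4 h and 3.69%, 3.87% and 3.41% after 16 h. The 22 coagulation genes went from 2.74% ± 0.17 to 2.16% ± 0.095 (SD, n = 3), without overlap between the groups. The 19 complement genes took 1.38% ± 0.13 and 1.49% ± 0.14, with overlap. Within the latter, C3 and Cfb went from 0.541% ± 0.092 to 0.769% ± 0.086, while the terminal proteins took 0.356% ± 0.023 and then 0.291% ± 0.03.

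**Figure D4:**
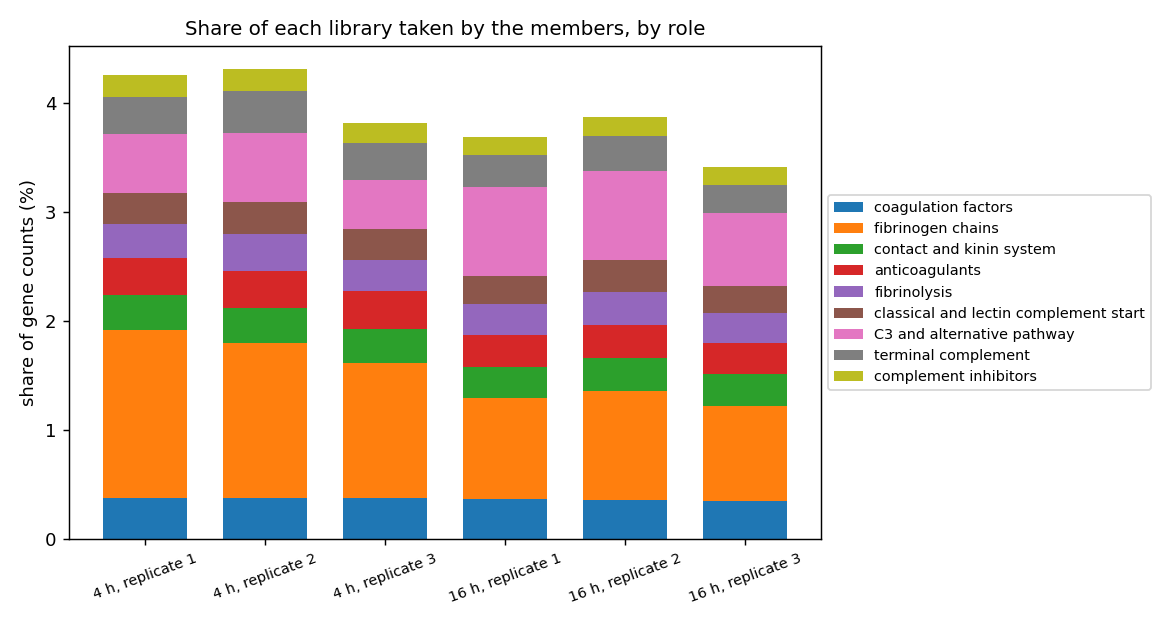
Share of all gene counts (vertical axis, %) that the members took in each of the 6 libraries, stacked by role. The fibrinogen chains make up 1.24% to 1.54% after 4 h and 0.871% to 0.995% after 16 h, and the segment of C3 and Cfb is larger in each 16 h library than in any 4 h library.

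Transcripts whose proteins assemble with each other, or that are paralogs, were compared within each library as a ratio of levels per length. In all, 8 pairs were compared with a 2-sided exact permutation test, which with 3 against 3 cannot go below p = 0.1. The ratio of Fga to Fgb was 1.31, 1.38 and 1.11 after 4 h and 1.21, 1.29 and 1.20 after 16 h, with overlapping groups (exact p = 0.8, adjusted 0.8). Fgg to Fgb was at 1.35, 1.28 and 1.39 and then at 1.22, 1.15 and 1.26, a mean log2 difference of -0.15 (exact p = 0.1, adjusted 0.2). C8a to C8b was at 1.32, 1.41 and 1.02 and then at 0.928, 1.01 and 0.948, a log2 difference of -0.36. The groups of the last 2 pairs did not overlap. Mbl1 to Mbl2 (0.35 higher on the log2 scale after 16 h) and Masp1 to Masp2 (0.23 higher) did not overlap either, and these pairs and C8a to C8b had the same p of 0.1 and adjusted value of 0.2. For C8g to C8b (-0.12), C1ra to C1s1 (0.10) and Kng1 to Kng2 (0.10) the values overlapped between groups, with exact p of 0.7, 0.5 and 0.2. No pair passed after adjustment.

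**Figure D5:**
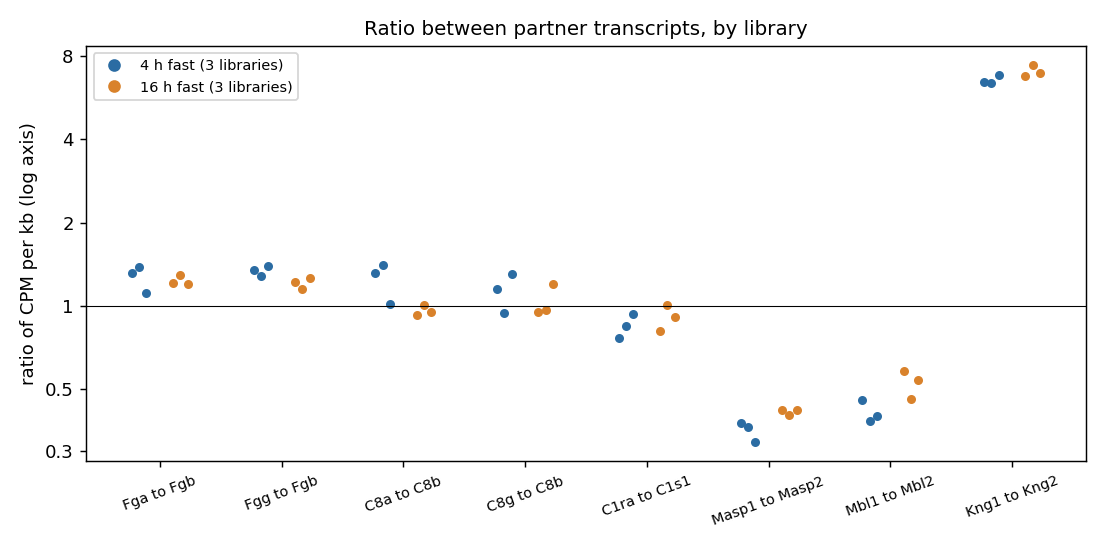
Ratio of CPM per kb of exon between 2 partner transcripts (log axis) in each library, for 8 pairs of subunits or paralogs, with replicates 1, 2 and 3 in order (blue 4 h, orange 16 h) and a line at equal levels. The fibrinogen ratios stay between 1.11 and 1.39 in all 6 libraries, and Kng1 is 6.40 to 7.43 times the level of Kng2.

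Many members lie next to each other in the genome, and 16 of the 41 have another within 200 kb, in 11 pairs. Both genes of a pair passed as lower in the fibrinogen cluster and for F11 and Klkb1. F7 and F10, 1.5 kb apart on chromosome 8, had log2 values of -0.41 and -0.40, of which that of F7 passed. C8a and C8b, 11.1 kb apart, had -0.66 and -0.30, and C1ra and C1s1, 6.9 kb apart, had -0.26 and -0.36, of which C8a and C1s1 passed. On chromosome 17 C2 was lower while C4b, 119 kb away, was at 0.02. C2 and Cfb are 0.085 kb apart and covered by the read-through gene.

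Other genes of coagulation and fibrinolysis, from a list of 22 with 20 tested, included 1 that was higher, 5 that were lower and 14 that did not pass. The median was -0.25. Tfpi2, a protease inhibitor, fell from 70.9 ± 6.13 to 35.7 ± 2.44 CPM (-0.99 ± 0.11, edgeR adjusted p = 1.55e-04). F3, the tissue factor gene, fell from 7.58 ± 0.764 to 3.36 ± 0.336 CPM (-1.17 ± 0.17, edgeR adjusted p = 0.00101). Serpina10, which encodes the protein Z-dependent inhibitor of factor X, fell by 0.80 ± 0.14, and Hgfac, the gene of a protease that activates hepatocyte growth factor, by 0.66 ± 0.11. These 4 calls held under all 11 alternatives. Habp2, a protease that can activate factor VII, fell by 0.39 ± 0.11, and Hrg, the histidine-rich glycoprotein, rose by 0.35 ± 0.11. Habp2 did not pass when 4 h replicate 2 was dropped (edgeR adjusted p = 0.118), or 16 h replicate 1, 2 or 3 (0.0935, 0.117 and 0.0895), nor did Hrg with plain library totals (0.0623), without 4 h replicate 1 (0.08) and when 16 h replicate 1, 2 or 3 was dropped (0.0946, 0.157 and 0.122). Vtn, the gene of vitronectin and the most abundant of the list, did not pass (-0.21 ± 0.13).

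In the list of 10 genes of the vitamin K cycle and of clotting factor export, 1 was lower, 9 did not pass and by edgeR 0 were higher, with 2 higher at an unadjusted p under 0.05 and 1 with DESeq2. Ggcx, the carboxylase that uses vitamin K to modify the clotting factors named above, was at 63.6, 68.4 and 53.0 CPM after 4 h and at 42.0, 45.9 and 38.9 CPM after 16 h. It fell by 0.54 ± 0.12 (edgeR adjusted p = 0.00972), and did not pass without 16 h replicate 3 (0.062). P4hb, a protein disulfide isomerase and the most abundant of the list, did not pass (-0.24 ± 0.10).

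Among 22 other soluble complement genes 19 were tested, of which 4 were lower, 15 did not pass and by edgeR 0 were higher (also 0 at an unadjusted p under 0.05 and 0 with DESeq2). Cpn1, the carboxypeptidase that trims C3a and C5a, fell from 380.4 ± 24.9 to 267 ± 5.19 CPM (-0.51 ± 0.10, edgeR adjusted p = 0.00632). C4a, the near-identical neighbour of C4b, was at 73.4, 71.6 and 147 CPM and then at 25.7, 31.9 and 28.8 CPM, lower in every 16 h library and highest in 4 h replicate 3. It fell by 1.76 ± 0.29 (edgeR adjusted p = 0.00675), whereas C4b did not pass. The calls of Cpn1 and C4a held under all 11 alternatives. C1rl, related to C1r, fell by 0.37 ± 0.11, and Cfd, the factor D gene, by 2.66 ± 0.64. The values of Cfd, which is also among the fat markers, were 5.37, 0.902 and 2.04 CPM and then 0.578, 0.241 and 0.494 CPM, and without 4 h replicate 1, the highest library, the change was -1.69. Without 4 h replicate 2 (0.0742) or 16 h replicate 1, 2 or 3 (0.126, 0.0902 and 0.104) C1rl lost its edgeR call. Cfd lost it without 4 h replicate 3 (0.0658) or 16 h replicate 1, 2 or 3 (0.0522, 0.0726 and 0.0762). The most abundant gene was Clu, which encodes clusterin (0.05 ± 0.13).

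Of 14 tested complement receptors and membrane inhibitors, 2 were lower, 12 did not pass and by edgeR 0 were higher (also 0 at an unadjusted p under 0.05 and 0 with DESeq2). Cr1l, the Crry gene that protects cells from C3 deposits, fell by 0.41 ± 0.10 and Cd59b, an inhibitor of the membrane attack complex, by 1.04 ± 0.25. Cr1l kept its call when 4 h replicate 3 was dropped and lost it with any other library dropped (edgeR adjusted p = 0.0574 and 0.0781 without 4 h replicate 1 and 2, and 0.0743, 0.0843 and 0.0627 without 16 h replicate 1, 2 and 3). Cd59b lost its call without 4 h replicate 1 (0.0534) or 16 h replicate 3 (0.0635). Cd59a, its more abundant paralog, did not pass, with 74.3 ± 12.5 and 65.8 ± 1.43 CPM. F2r, the thrombin receptor and the only one of 6 protease receptors with enough counts to be tested, did not pass (-0.21 ± 0.14).

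Liver transcription factors and cytokine receptors from a list of 26 included 6 that were higher, 4 that were lower and 16 that did not pass. Hnf4a, a main regulator of hepatocyte genes, was at 590, 625 and 639 CPM after 4 h and at 861, 1185 and 1104 CPM after 16 h. It rose by 0.77 ± 0.13 (edgeR adjusted p = 0.00239). Cebpa and Cebpd, of the family that binds the C/EBP core, moved in opposite directions. Cebpa fell from 574 ± 87.8 to 345 ± 34.2 CPM (-0.73 ± 0.13) and Cebpd rose from 6.71 ± 0.98 to 17.4 ± 3.08 CPM (1.37 ± 0.17), with 15% of the exon bases of Cebpd shared with another gene. Nfil3 rose by 1.19 ± 0.13, Nr1i3 by 0.96 ± 0.11 and Ppara by 0.82 ± 0.13, with 74.9% of the exon bases of Nr1i3 overlapping other genes, and Dbp, a clock-driven factor that binds the D-box, fell by 2.68 ± 0.28. Il6ra, the receptor of interleukin 6, rose by 0.84 ± 0.17. When 4 h replicate 3 was dropped its change was 0.89, but the call was lost (edgeR adjusted p = 0.0651). The calls of Hnf4a, Cebpa, Cebpd, Nfil3, Nr1i3, Ppara and Dbp held under all 11 alternatives.

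Acute phase plasma proteins other than the members had 6 of 23 higher, 2 lower and 15 not passing, and a median of 0.36. Of the 6 that were higher, Lcn2 and Orm3 rose most, by 2.65 to 3.14 and 2.34 to 2.58 over the 11 alternatives. Serpina3m (0.95 to 1.23) and Serpina3n (0.66 to 0.9) were also among them, and the 2 lower were Saa4 and Ahsg. Lbp, the lipopolysaccharide-binding protein, rose from 95.7 ± 11.5 to 214 ± 20.9 CPM (1.16 ± 0.12, edgeR adjusted p = 1.28e-04), and Itih3 rose by 0.62 ± 0.13, while the fibrinogen chains fell. Single libraries stood far apart in the serum amyloid A genes, which encode acute phase proteins and include near-identical copies whose reads may be split. Saa1 was at 36.1, 64.3 and 422 CPM and then at 91.1, 665 and 163 CPM, and Saa2 at 20.2, 28.4 and 288 CPM and then at 34.5, 413 and 41.9 CPM. In both genes 4 h replicate 3 and 16 h replicate 2 were the highest libraries of their groups, and neither gene passed. The 3 fibrinogen chains passed with each of these libraries left out in turn, and C3 passed without 4 h replicate 3 but not without 16 h replicate 2 (edgeR adjusted p = 0.0969). The part of this difference between libraries in the results was not tested. Of 26 tested genes of other secreted liver proteins, 1 was higher, 8 were lower and 17 did not pass, with a median of -0.14. Ahsg is on this list too and is counted as lower in both. Serpina7 (-3.59 to -2.85 over the 11 alternatives) and Serpina6 (-1.75 to -1.66) were among the lower ones. Ttr, the transthyretin gene, fell from 6101 ± 764 to 3237 ± 232 CPM (-0.91 ± 0.13), and Mug1, which encodes the protease inhibitor murinoglobulin, rose from 2958 ± 464 to 8333 ± 1050 CPM (1.49 ± 0.15). Whether the members differ from these lists was not tested.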

How the data were processed

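Liver RNA of 6 mice was sequenced, 1 library each. Per the labels' protocols, RNA was extracted with TRIzol and a spin column with DNase treatment, and a commercial provider made the libraries. Per the submitters' processing notes, Trimmomatic, STAR and HTSeq served for trimming, alignment to GRCm38 and counting, and the authors tested with DESeq2. The sources used here give no versions, annotation release or strand setting. What was deposited are raw counts per Ensembl gene, and the 5 summary lines of each table, which name no gene, were left out. Of all reads in the tables, 5.78% to 6.60% fell in more than 1 gene and 6.44% to 7.14% in none, and no gene's count holds them. Symbols, positions and exon lengths came from GENCODE M21, which holds 55230 of the 55471 identifiers.

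Genes kept by filterByExpr were fitted with edgeR 4.0.16 (R 4.3.3) with TMM scaling and a robust quasi-likelihood test of 16 h against 4 h without other terms. Biological variation between livers had a coefficient of 14.3%. Intervals and SE come from this fit. The fit was also run on simulated counts, but these were drawn from its own means and dispersions. That run therefore cannot check the dispersions or the intervals. Alternatives were DESeq2 1.42.0, DESeq2's size factors, plain totals, no filter, a block for the replicate number, and leaving out each library. Chi-square per degree of freedom between libraries of a group was 17.3 to 68.5, so none was counted as a duplicate. Intervals cover the spread between these samples. Members, lists and tests were chosen with earlier results of these data known. All members are reported. Values in every library are given for members that passed, for the 5 with the highest level per length and for any whose call changed under an alternative. Of other lists, up to 6 called genes with the smallest adjusted p and the most abundant gene could be named, and genes beyond these were picked after their values were seen.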

Additional observations from a re-analysis of the deposited data

How the results depend on the processing

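Of 451 values of single members under 11 alternatives, 379 kept their direction and side of the threshold, 32 lost a call and 30 gained one. The number of members lower, 10, was 16 with plain library totals and 16 with DESeq2, and ran from 3 to 11 without single libraries. The number higher, 3, ran from 1 to 4 without single libraries. Over all genes, 1268 higher and 1313 lower became 1054 and 1377 with plain library totals and 1410 and 1279 with DESeq2. Without single libraries they became 671 to 1594 and 696 to 1393. Fewer libraries were fitted in these. The median change of the members moved by less than the spread between replicates under each alternative. Direction turned for 6 members near 0, each without single libraries, and for C4b also with plain library totals (-0.00). Over the 11 alternatives C4b ran from -0.1 to 0.11, F2 from -0.08 to 0.01 and F13b from -0.05 to 0.15. Masp2 ran from -0.08 to 0.03, Cfb from -0.18 to 0.54 and Serping1 from -0.1 to 0.03. Of 48 ratios without single libraries, 1 turned, that of Fga to Fgb, which ran from -0.13 to 0.03. The cause was not tested. Libraries with the same replicate number correlated at 0.045 to 0.093 in their deviations from the group means, so the numbers were not taken as pairs, although 5 of 6 libraries correlated best with their own number. With the replicate number as a block, 4 members were higher and 15 lower, and 1352 and 1396 of all genes. The 6 members that gained a call under it were F9 (adjusted p = 0.0356), F10 (0.0467), Proc (0.0453), Cpb2 (0.0483), C8g (0.0437) and C9 (0.0439), and no member lost one.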
